A study of Mus musculus with 3 samples.

Results

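The genes described here drive the cell division cycle or bring it to a stop: cyclins, cyclin-dependent kinases and their inhibitors, the Rb and E2F proteins, the machinery that copies DNA, and the kinases and checkpoint proteins of mitosis. They were taken by gene symbol, as every probe set with 1 gene symbol in the platform annotation that fell in these named families or was Pcna, Mki67, Top2a, Tk1, Rb1, Rbl1, Rbl2, Mad2l1 or Wee1. The rule gave 146 of the 12422 gene probe sets, for 109 of 8251 genes. Cdc42 was left out, and so were 3 probe sets with several symbols, which removed Tyms. Expression was measured in the neural retina of Rp1 knockout mice (Rp1-/-) at postnatal day 10, on a mixed background of 129/SvEv and C57BL/6. All 3 arrays belonged to this group, each from a pool of 3 to 4 animals taken between 1 and 2 pm. Rp1 encodes a microtubule-associated protein of photoreceptor cilia. No array of another genotype or age was analysed here, so every comparison is between pools of mutant retina, and the numbers of the pools are names only. Pool 1 is described as the same genotype, but its title does not carry the rp1 tag found in the other titles.

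In a dividing cell, D cyclins switch on Cdk4 and Cdk6, which phosphorylate Rb and release E2F factors, and these turn on the genes for DNA replication. Origins of replication are licensed by the origin recognition complex and the Mcm helicase, and mitosis follows under Cdk1, Aurora and Polo kinases. CDK inhibitors and the Rb family hold differentiated cells out of the cycle. In the mouse retina, progenitors leave the cycle from the centre outwards, and by this age nearly all have done so, while Müller glia keep some cyclin D and inhibitor expression.

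Signals are in scaled intensity units on a linear scale, 1 value per pool. Each SD is that of log2 signal over n = 3 pools, unless a pool is said to be left out. A background floor, the 90th percentile of 19 bacterial and yeast control probe sets, lay at 100.5, 124.8 and 120.4 in pools 1, 2 and 3. A probe set is called measured where its mean signal exceeded the mean floor. All 12 rod photoreceptor genes with a probe set were above the floor in all pools, with summed signals of 88199.9, 103551.4 and 91930.5. Pool 1 was lower than pool 2 for 11 of the 12, with a median of -0.39 on the log2 scale, against 3116 of all 6210 measured genes. The exception, the disc protein gene Prph2, had 9356.3, 1469.1 and 1332.3 and passed the test of variability used here (limma, adjusted p = 0.0011), with pool 1 highest. Pool 1 is the pool whose title lacks the tag, and the part of this in the results was not tested. Lens genes differed most among the marker lists: 11 of 12 were above the floor in all pools, and their summed signals were 94951.2, 25485.9 and 203758.1. Of the 11 measured lens genes 8 passed the same test (limma, lowest adjusted p of 0.0003), against 14 of all 6210 measured genes. RNA integrity can be read from the 3' over 5' ratio of control genes, which for Actb was 1.10, 1.40 and 1.63. That of Gapdh was 0.82, 0.90 and 0.75, lowest in pool 3, where that of Actb was highest. Probe sets bind their targets with different strength, so signals are compared between pools and not between genes.

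Most cell cycle genes gave signal in this tissue, and genes used as markers of dividing cells fell on both sides of the floor. With each gene represented by its probe set of highest mean signal, 80 of 109 genes (73.4%) were above the floor in all pools, against 66.4% of all genes. Another 19 were above it in 1 or 2 pools and 10 in none. Top2a, the topoisomerase of dividing cells, stood at 31.2, 22.2 and 18.4 in pools 1, 2 and 3, under the floor throughout. Mki67, the Ki-67 antigen, stood at 122.8, 165.3 and 51 by an r-class probe set and at 31, 101.4 and 122.6 by the other, so neither probe set was above the floor everywhere. Other such markers, Pcna, Mcm2, Mcm5, Mcm7, Ccna2, Ccnb2, Plk1, Cdc20 and Aurka, were above it in all pools, with values given by role further on. The other genes under the floor in all pools were Bub1, Ccna1, Ccnd2, Ccne2, Cdk5r2, Cdkn2b, Cdkn3, Mcm6 and Pole2. Those above it in 1 or 2 pools were Aurkb, Ccnb1ip1, Cdc25c, Cdc73, Cdk1, Cdkn1b, Cdkn2a, E2f1, E2f3, E2f8, Mcm10, Orc1, Orc2, Plk4, Pold4, Rfc4, Rrm2 and Wee1, beside Mki67. In whole retina, fewer cells of a type and less RNA per cell cannot be told apart. By probe set, 106, 107 and 108 of 146 were above the floor in pools 1, 2 and 3, against 69.7%, 65.5% and 66.2% of all gene probe sets. Over all pools the count was 92 (63%, against 57.9%), and 22 were above it in no pool (15.1%, against 23.3%).

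**Figure D1:**
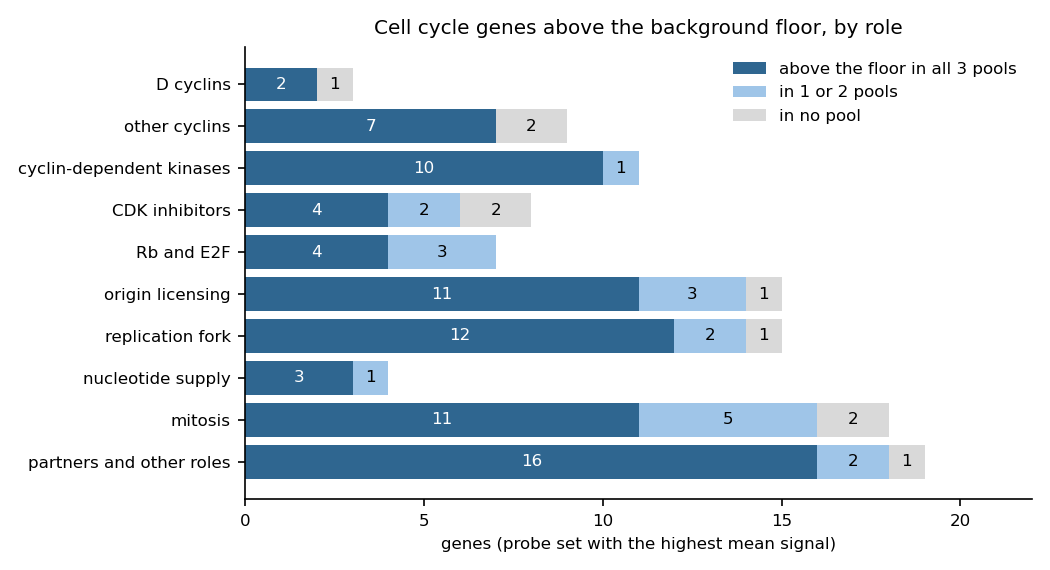
Number of cell cycle genes (x axis) above the background floor in all 3 pools, in 1 or 2 pools or in none, for each role (y axis), with each gene represented by its probe set of highest mean signal. Of 109 genes 80 were above the floor in all pools, and the CDK inhibitors (4 of 8), Rb and E2F (4 of 7) and mitosis (11 of 18) had the lowest shares.

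None of the 105 measured members varied between pools beyond the trend for probe sets of like signal (limma, robust fit with Benjamini-Hochberg adjustment over 8327 measured probe sets, of which 18 or 0.216% passed at 0.05). At an unadjusted p under 0.05 there were 3 members (2.86%), against 5.34% of all measured probe sets. These were an r-class probe set of Pola2, Plk3 and Cdkn1a, and the lowest adjusted p among members was 0.57. Members had a median SD of 0.23 in log2 signal, and all measured probe sets had 0.27. The brightest 25% of probe sets held 19 of the 105 members (18.1%). Split by mean signal into 4 equal parts, the dimmest had a median SD of 0.43 for 24 members and 0.36 for all, and the brightest 0.20 for 19 members and 0.21 for all. In the parts between, it was 0.24 against 0.30 and 0.19 against 0.24. The absence of calls does not show that the pools were alike, since 3 arrays limit what the test can call.

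**Figure D2:**
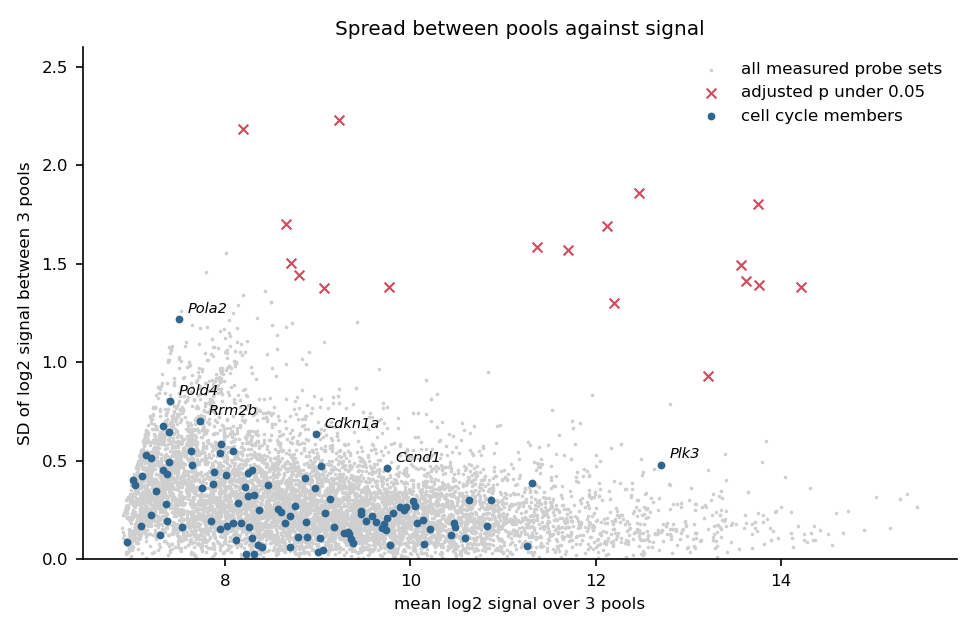
SD of log2 signal between the 3 pools (y axis) against mean log2 signal (x axis) for 8327 measured probe sets (grey), the 105 cell cycle members (blue) and the 18 probe sets with an adjusted p under 0.05 (crosses). No member is among the crosses, and the member with the largest SD is the r-class probe set of Pola2 at 1.22.

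D cyclins bind Cdk4 and Cdk6 and carry the signal to divide from outside the cell. Ccnd1 (cyclin D1), the D cyclin of retinal progenitors, had signals of 1210, 641.7 and 819.3 in pools 1, 2 and 3. Its other probe set had 401.3, 264.8 and 187.7, so pool 1 was highest by both while the order of pools 2 and 3 was reversed. Neither passed (limma, adjusted p of 0.99 for both). Ccnd3 (cyclin D3) stayed between 579.4 and 698.3, and Ccnd2 was under the floor in every pool. Cyclin D1 is also a gene of progenitors and Müller glia, and 12 of the 14 marker genes of these cells with a probe set were above the floor in all pools. Vim and Fgf15 were under it throughout. The summed signal of this marker list was 25728.3, 22618.2 and 24440.0, and over its 12 measured genes pool 1 exceeded pool 2 by a median of 0.32 and pool 3 by a median of 0.22 on the log2 scale. Of the 12 genes 8 were higher in pool 1 than in pool 2, and 8 were higher in pool 1 than in pool 3. Over all 6210 measured genes these counts were 3093 and 3096. Members of the list ran both ways: Notch1, the receptor that maintains progenitors, had 1120.3, 742.4 and 606.3, while Rlbp1, a retinoid carrier of Müller glia, had 2014.4, 2832 and 3172.5. None of the 12 passed (limma, lowest adjusted p of 0.99), and the part of these cells in the Ccnd1 signals was not tested.

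Of the other cyclins, 7 of 9 were above the floor in all pools. All 7 were lower in pool 1 than in pool 2, although by a median of only -0.09 on the log2 scale. The same direction was found for 51 of 89 measured member genes and 3116 of all 6210 measured genes. Ccna2 (cyclin A2, of S phase and mitotic entry) had 625.2, 691.3 and 691.2. Ccne1 (cyclin E1, of the start of S phase) had 662.4, 698.4 and 606.1. Ccng2, a cyclin linked to growth arrest, had 1281.7, 1358.8 and 1631.5. The steadiest of all measured members was Ccng1 (cyclin G1, a p53 target) at 311.8, 322.2 and 316.6. Ccnb2 (cyclin B2, the partner of Cdk1 in mitosis) was lowest in pool 3, at 396.7, 423.2 and 261.1. Ccnc (a partner of Cdk8 in transcription) had 475.6, 646.8 and 507.7, and Ccnf 368.3, 395.3 and 492.6. Pool 2 was highest for 5 of these 7 cyclins, against 34.1% of all genes above the floor in all pools. None of the 7 passed the test.

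All 11 cyclin-dependent kinases were measured, and all but Cdk1 were above the floor in all pools. Cdk1, the kinase that starts mitosis, had 51.4 in pool 1, under the floor, against 216.4 and 218.9 in pools 2 and 3. Against the floor of pool 1, this is a difference of at least 2.15-fold for pool 2 and at least 2.18-fold for pool 3 (limma, adjusted p = 0.99). Cdk4, the partner of D cyclins, had 2243.9, 1953.6 and 1491.2, and its other probe set had 601.5, 508.1 and 627.4, so pool 1 was highest by the first and pool 3 by the second. Cdk2, the partner of cyclins E and A, stood at 171.2, 133.5 and 195.2. Cdk5, which works in postmitotic neurons rather than in division, had 1549.9, 1428.1 and 1654. Cdk16, a kinase of neurons among other tissues, had 1314, 1013.1 and 1077.3. The kinases of transcription were above the floor throughout as well: Cdk7 was between 172.8 and 287, Cdk8 between 925.3 and 1156.8 and Cdk9 between 816.8 and 1156.9. All 3 of them were lowest in pool 3, against 1741 of 5475 genes above the floor in all pools.

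Of the CDK inhibitors, the signals of Cdkn1a differed most between pools. Cdkn1a (p21, induced by p53) had 303 in pool 1 against 652.6 and 646.5 in pools 2 and 3, a 2.15-fold and 2.13-fold difference. Its other probe set had 98.6, 173.8 and 108.4, of which only the value of pool 2 exceeded its floor, so this set does not rank the other pools. With limma the adjusted p was 0.83 for the first set and 0.99 for the second. Cdkn1c (p57, a CDK inhibitor that promotes cell cycle exit in retina and lens) had 1480.6, 1343.6 and 2005.5. That order of pools, with pool 3 highest and pool 2 lowest, was also that of the summed lens signals given above, and the part of lens RNA was not tested. Among genes above the floor in all pools, 11 of 80 members (13.8%) had this order, against 15.7% of all.

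Among the INK4 inhibitors, which block Cdk4 and Cdk6, Cdkn2c (p18) was steady at 298.5, 304.2 and 292.6. Cdkn2d (p19) had 1005.8, 829.4 and 758.6. Cdkn2a stood at 113, 159.6 and 32.4 and was not measured, and Cdkn2b was under the floor throughout. Cdkn1b (p27), the inhibitor of postmitotic retinal cells and Müller glia, was not measured by either probe set. Its signals were 170.2, 83.6 and 46 by the first, above the floor in pool 1 only, and 20.6, 119 and 165.4 by the r-class set, above it in pool 3 only. Cdkn3, a phosphatase that acts on Cdk2, was under the floor throughout.

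The pocket proteins and E2F factors were mostly dim, and all 7 were measured. Rb1, the retinoblastoma gene, had 334.7, 339.2 and 308.7. Rbl1 (p107) had 142.8, 202.3 and 275.9, and Rbl2 (p130, the pocket protein of resting cells) 129.3, 231.1 and 152.3. E2f5, a repressor-type E2F, had 278.1, 346.8 and 299.8. The activator E2f3 had 85.5, 136.2 and 208.7, so that pool 3 was 2.08-fold above the floor of pool 1. E2f1 had 153.3, 223.8 and 34.3 by an f-class probe set, and the other was under the floor everywhere. E2f8, an atypical repressor, had 169.3, 87.1 and 150.5 by an r-class set. In this role 6 of 7 genes were lower in pool 1 than in pool 2, against 3116 of 6210 measured genes. The median was -0.44 on the log2 scale, and none of the 7 passed (limma, lowest adjusted p of 0.99).

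Of the licensing genes 11 of 15 (73.3%) were above the floor in all pools, near the 66.4% of all genes. Mcm7, a subunit of the Mcm2-7 helicase, had 879.3, 651.8 and 785, and Mcm5 was among the steadiest members at 408.7, 437.6 and 406.8. Mcm2 had 340.1, 287 and 157.2, which is 2.16-fold higher in pool 1 than in pool 3. Mcm4 had 351.3, 264.3 and 240.2, with pool 1 highest as for Mcm2. Mcm3 had 258.2, 293.9 and 280, and Mcm6 was under the floor at 60.1, 42.8 and 99.1. The helicase subunits, which work as 1 complex, did not share an order of pools.

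The helicase activator Cdc45 ran against Mcm2, with 167.5, 253.5 and 353.4, 2.11-fold higher in pool 3 than in pool 1. Of the origin recognition complex, Orc6 had 640.4, 439.7 and 625.3, Orc4 479.6, 533.4 and 554.6 and Orc5 325.5, 398.3 and 453.6. Cdc6, which loads the helicase, had 193.2, 154.3 and 152.9, and Cdc7, the kinase that fires origins, had 243.3, 396.6 and 274.7. None of the 12 measured licensing genes passed (limma, lowest adjusted p of 0.99).

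E2F factors bind the promoters of many replication genes, so the promoter windows of the members were read for E2F motifs. The windows came from RefSeq (GRCm38.p6) and ran from 250 bases before to 50 bases after each start, with 92 of 109 genes matched. The motif was any of TTTGGCGC, TTTGCCGC, TTTCGCGC and TTTCCCGC, on either strand, and matches could overlap. It was found in 18 of 92 member genes (19.6%), against 284 of 6572 genes on the array (4.32%) and 704 of 27025 genes in all (2.6%). Licensing and replication fork genes held it in 6 of 14 genes each (42.9%), and the mitosis genes in 1 of 14 (7.14%). None of the 7 cyclins beyond the D cyclins and none of the 17 partner genes held it. Median GC content was 63.3% for members and 61% for genes on the array. Between the quartiles of the members' GC, 9 of 47 members (19.1%) and 127 of 2500 genes on the array (5.08%) held the motif. The CCAAT box was found in 57.6% of members, 42.5% of genes on the array and 41.1% of all genes. The mitotic CHR element TTTGAA was found in 21.7% of members, 15.5% of genes on the array and 20.2% of all genes. Of the 14 mitosis genes 6 (42.9%) held it.

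Stretches are shown for Mcm5, Mcm7 and Cdc6, licensing genes above the floor in all pools, for Mcm6 and Orc1, which were not, and for Cdk1 and Rbl1, which were lowest in pool 1. Each gives the 170 bases before the start on the gene's strand, with E2F motif letters in capitals.
Mcm5 (chr8:75109339-75109508, plus strand): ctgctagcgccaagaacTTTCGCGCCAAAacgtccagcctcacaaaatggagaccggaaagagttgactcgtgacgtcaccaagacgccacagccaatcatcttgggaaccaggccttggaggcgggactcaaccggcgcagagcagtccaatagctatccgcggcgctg
Mcm7 (chr5:138171884-138172053, minus strand): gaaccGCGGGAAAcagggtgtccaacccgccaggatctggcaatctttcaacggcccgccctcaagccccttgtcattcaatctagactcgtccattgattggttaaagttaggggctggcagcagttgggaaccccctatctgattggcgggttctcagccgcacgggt
Mcm6 (chr1:128359706-128359875, minus strand): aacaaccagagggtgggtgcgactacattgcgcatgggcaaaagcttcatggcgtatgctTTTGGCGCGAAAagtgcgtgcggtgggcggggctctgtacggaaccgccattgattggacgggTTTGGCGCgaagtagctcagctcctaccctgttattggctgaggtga
Orc1 (chr4:108579284-108579453, plus strand): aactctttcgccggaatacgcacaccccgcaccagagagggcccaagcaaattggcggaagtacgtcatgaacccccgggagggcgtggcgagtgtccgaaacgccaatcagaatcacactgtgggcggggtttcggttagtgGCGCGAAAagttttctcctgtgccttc
Cdc6 (chr11:98907981-98908150, plus strand): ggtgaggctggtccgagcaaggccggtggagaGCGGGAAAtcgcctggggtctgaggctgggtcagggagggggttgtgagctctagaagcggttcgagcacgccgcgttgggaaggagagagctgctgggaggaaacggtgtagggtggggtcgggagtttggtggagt
Cdk1 (chr10:69352913-69353082, minus strand): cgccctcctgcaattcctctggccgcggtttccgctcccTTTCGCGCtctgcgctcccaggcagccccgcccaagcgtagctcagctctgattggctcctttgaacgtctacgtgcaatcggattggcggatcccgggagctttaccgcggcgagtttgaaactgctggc
Rbl1 (chr2:157204535-157204704, minus strand): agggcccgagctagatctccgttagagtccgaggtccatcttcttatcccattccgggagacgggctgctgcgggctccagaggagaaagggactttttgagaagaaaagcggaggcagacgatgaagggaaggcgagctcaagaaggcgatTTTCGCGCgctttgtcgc
In Mcm5 and at the first place in Mcm6, motifs on both strands overlap and share 4 letters. Mcm6 held 3 matches, the most among the stretches shown, and was under the floor in every pool. Mcm7 has another start in the table, and the 170 bases before that one hold no match. Letters are given 5' to 3' along the gene.

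**Figure D3:**
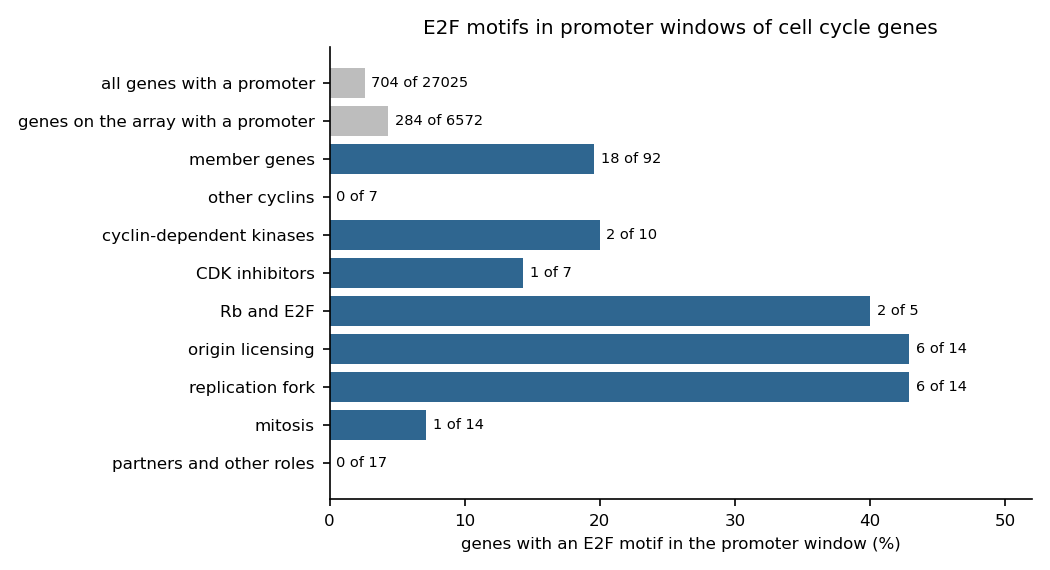
Share of genes (x axis, percent) with at least 1 E2F motif in a 300-base promoter window, for all genes, genes on the array, the members and each role with at least 5 genes (y axis), with the counts beside the bars. Licensing and replication fork genes reach 42.9%, against 4.32% of genes on the array.

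Of the 18 members with an E2F motif, 12 were above the floor in all pools, against 56 of the 74 without the motif. Over 14 measured genes with the motif, the median difference in log2 signal was -0.02 between pools 1 and 2 (the first minus the second), -0.15 between pools 1 and 3 and -0.23 between pools 2 and 3. Over 62 measured genes without it these medians were -0.04, -0.00 and -0.03, and the median SD was 0.22 in both sets. A motif match describes these letters only and not the binding of a factor.

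Genes of the replication fork were above the floor in all pools for 12 of 15. Pcna, the sliding clamp of DNA polymerases, had 777.4, 1070.5 and 878.8. Rfc2, a subunit of the clamp loader, had 806, 906.4 and 1151.6, and Pole3, a small subunit of polymerase epsilon that also sits in chromatin remodellers, was steady at 926.5, 842.3 and 865.4. Pold4, the smallest subunit of polymerase delta, had 121.2, 108.3 and 322.1, so pool 3 was 2.66-fold above pool 1 (limma, adjusted p = 0.96). Pola2, the second subunit of the primase-bound polymerase alpha, had 423, 361 and 523.5. Its r-class probe set had 81.4 and 93.4 in pools 1 and 2, under the floor. In pool 3 that set had 478.3, 4.76-fold above the floor of pool 1 (limma, adjusted p = 0.57). Pold1, the catalytic subunit of polymerase delta, had 305, 291.7 and 401.4, with 132, 210.3 and 279.9 by an r-class set. Of the 12 genes of this role above the floor in all pools, 6 had pool 3 highest, against 31.6% of all such genes. Pool 2 was lowest for 7 of the 12, against 1843 of 5475 such genes in all. Lens signals, when summed, also peaked in pool 3 and were least in pool 2. The median of pool 2 less pool 3 was -0.14 on the log2 scale over the 14 measured genes of this role, against 0.01 over all measured genes. The part of lens RNA was not tested.

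Of the nucleotide supply genes, Tk1 (thymidine kinase) had 336.8, 514.4 and 581.9, and Rrm1 (the large subunit of ribonucleotide reductase) 330.1, 217.6 and 393.6. Rrm2, the small subunit used in S phase, had 63.5, 109.1 and 153.6, only the last of them above the floor. Rrm2b, the p53-induced small subunit that serves resting cells, had 121.1, 288.3 and 273.8 by an f-class probe set, 2.38-fold and 2.26-fold above pool 1 in pools 2 and 3 (limma, adjusted p = 0.99).

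Among 18 mitosis genes, 11 were above the floor in all pools. Plk3, a stress-responsive Polo-like kinase, had 4983.8, 6261.2 and 9589, a 1.92-fold range (limma, unadjusted p = 0.023, adjusted p = 0.81). This is an r-class probe set and the only set for this gene. Bub3, of the spindle checkpoint, had 1973.4, 1597.1 and 1917.4, and Cdc16, of the anaphase-promoting complex, 1200, 1087.8 and 1112. Cdc20, which activates that complex, had 364, 245.1 and 360.8. Plk1 was steady at 500.7, 512.1 and 524.6 by the g-class probe set, while f-class sets had 284.5, 243.3 and 444.3 and 244.6, 122.6 and 155.4. Cdc23, also of the anaphase-promoting complex, was steady at 514, 540.7 and 545.3 by 1 probe set. By the other it had 276.1 in pool 1 and 39.1 and 111.8 in pools 2 and 3, under their floors, so pool 1 was at least 2.21-fold and at least 2.29-fold above them. Plk2, a Polo-like kinase of neurons and stress responses, had 919.5, 1319.5 and 927.2. The checkpoint gene Mad2l1 had 234.5, 262.2 and 200.2, and the mitotic kinase Aurka was just above the floor of every pool, at 116.9, 131.6 and 121.3. Wee1, which restrains Cdk1, had 15.6, 129.4 and 118.4, above the floor in pool 2 only.

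Several members carry a cell cycle name and are known mainly for other work. Ccndbp1, which binds D cyclins and acts as a repressor of transcription, had 1911.2, 3258.7 and 2651.3. Cdk2ap2 had 2334.9, 2461.9 and 2553.2 and Cdk2ap1 1502.5, 1249.7 and 1537.1. Cdk5r1 (p35, the neuronal activator of Cdk5) had 310.8, 427.4 and 414.8. Of 19 such genes 16 were above the floor in all pools, and none passed. Of 16 measured, 10 were higher in pool 1 than in pool 2, against 3093 of all 6210 measured genes.

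**Figure D4:**
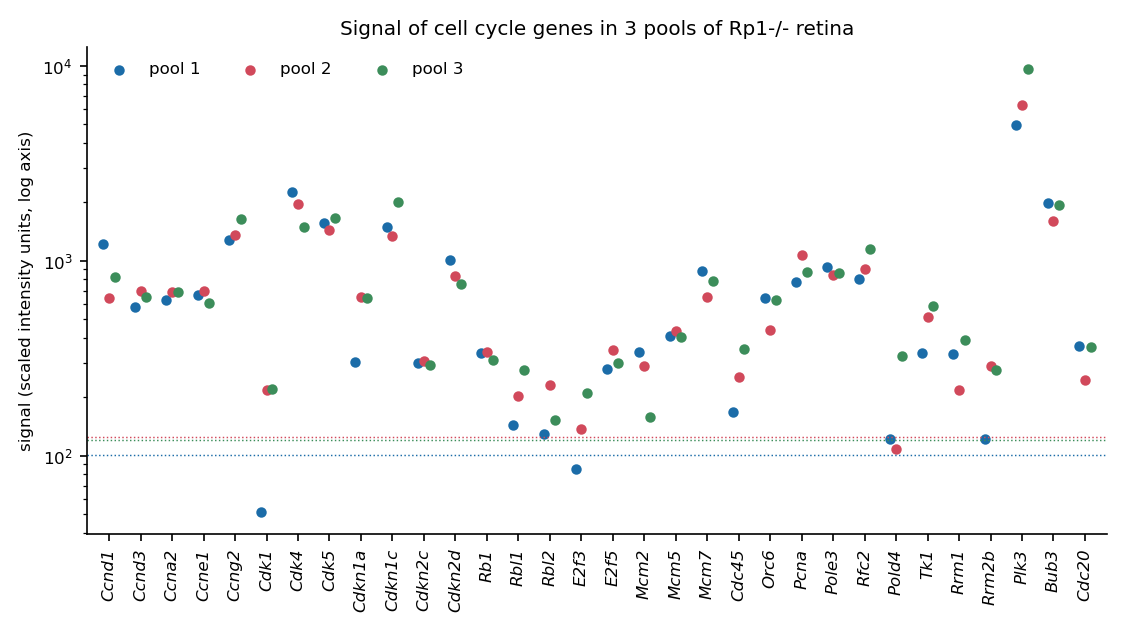
Signal in scaled intensity units (log axis) of 32 cell cycle genes in pools 1, 2 and 3 (coloured points, 1 probe set per gene), with the floor of each pool as a dotted line. Cdk1 lies under the floor in pool 1 at 51.4 and at 216.4 and 218.9 in the others, Cdkn1a is lowest in pool 1 at 303, and Cdkn2c and Mcm5 nearly coincide in all pools.

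Differences of 2-fold or more between pools were most numerous for pools 1 and 3. There 11 of 105 measured probe sets (10.5%) differed by at least 2-fold, against 6.93% of all measured probe sets. This count depends on the floor and the filter. It was 25 of 132 (18.9%, against 15.5% of all) with the floor at the median control, and 2 of 86 (2.33%, against 3.22%) with it at the highest control. Among probe sets above the floor in all pools it was 6 of 92 (6.52%, against 4.43%), and among the brightest 25% it was 0 of 19 (against 2.26%). With the main floor, 8 of the 11 were higher in pool 3 (7.62%, against 3.82% of all). They were the r-class sets of Pola2 and Pold1, and Pold4, Rrm2b, Cdk1, Cdkn1a, Cdc45 and E2f3. By their other sets, Pola2 and Pold1 were only 1.24-fold and 1.32-fold higher in pool 3 than in pool 1. The other 3 were higher in pool 1 (2.86%, against 3.11%): Mcm2 and the second probe sets of Cdc23 and Ccnd1. The first sets of Cdc23 and Ccnd1 gave 0.94-fold and 1.48-fold for pool 1 over pool 3. Between pools 1 and 2 there were 4 (3.81%, against 6.26%). Cdk1, Cdkn1a and Rrm2b were the 3 higher in pool 2 (background 3.52%), and the second Cdc23 set was the 1 higher in pool 1 (background 2.74%). Between pools 2 and 3 there were 2 (1.9%, against 5.12%), the r-class Pola2 set and Pold4, both higher in pool 3 (background 2.38%). None was higher in pool 2 than in pool 3, where the background was 2.74%. The 11 probe sets of the first comparison held every member past 2-fold in any pair, 10.5% against 13.2% of all measured probe sets. Of the 11, 5 had at least 1 pool under the floor and 3 were of the r or f class. Each pair of pools is 1 array against 1 array and has no replicate check.

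Over the 89 measured member genes, the median difference in log2 signal was -0.05 between pools 1 and 2 (the first minus the second), -0.02 between pools 1 and 3 and -0.03 between pools 2 and 3. Over all 6210 measured genes these medians were -0.00, -0.00 and 0.01. Of the 80 member genes above the floor in all pools, pool 1 was highest for 26, pool 2 for 27 and pool 3 for 27. These are 32.5%, 33.8% and 33.8%, against 34.2%, 34.1% and 31.6% of all such genes.

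Where a gene had more than 1 probe set, the sets often ranked the pools differently. Of 33 such genes, 12 had at least 2 probe sets above the floor in all pools. Those sets gave the same order of pools for 2 of the 12, Cdk11b and Cdk5rap3. The same share was not computed over all genes with several probe sets, so no trait of the members is read from it. The order differed in Bub3, Ccnd1, Cdc5l, Cdk14, Cdk4, Plk1, Pold1, Pole3, Pole4 and Rfc5. The pool with the highest signal was shared in 6 of the 12, among them Ccnd1 and Pold1. Cdk14, for example, was lowest in pool 1 by 1 set (857.5, 1124.7 and 1231.7) and highest there by the other (269.7, 219.1 and 253.6). Of the 146 probe sets 24 had a class suffix (r, f, s, i or g), which marks sets chosen under relaxed rules or able to bind related transcripts.

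**Figure D5:**
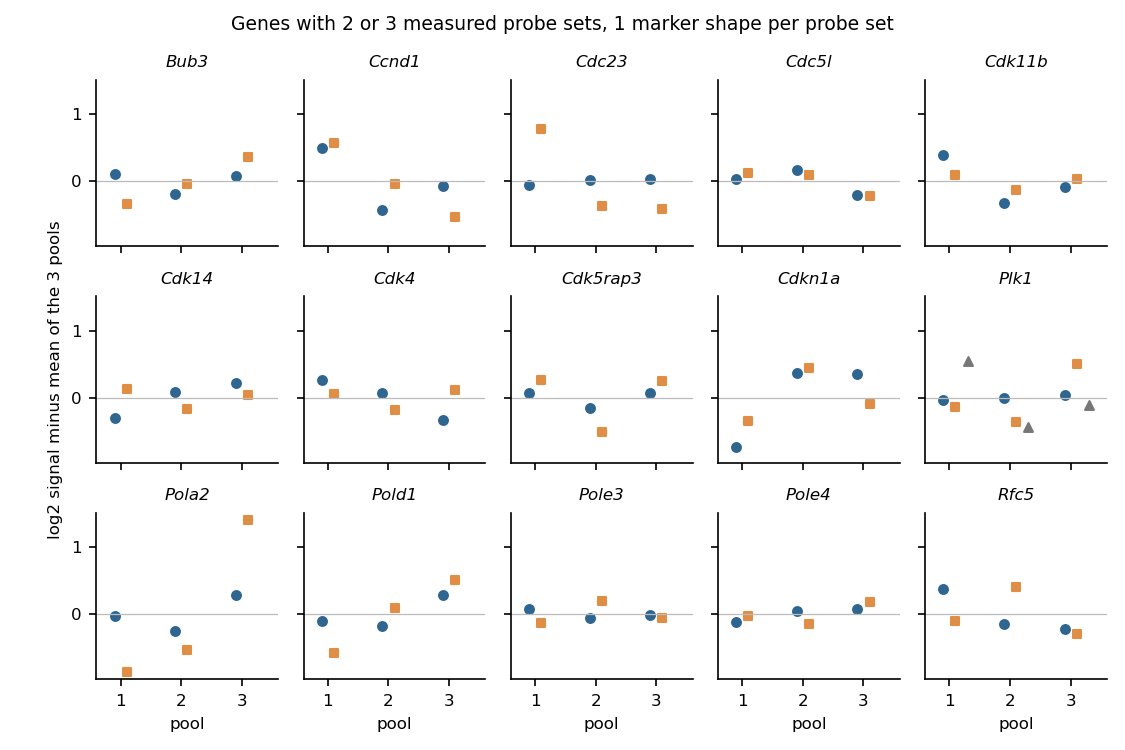
Log2 signal minus the mean of the probe set over the 3 pools (y axis) in pools 1, 2 and 3 (x axis), for the 15 member genes with 2 or 3 measured probe sets, with a marker shape for each set and signals under the floor set to it. The sets of Cdk11b and of Cdk5rap3 rank the pools alike, and those of Cdk14 and Cdk4 do not.

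Other genes of the same pathways, outside the symbol rule, were read from lists. Of all 8251 genes 6210 were measured. Of 22 further S phase genes with a probe set 14 were measured, of 27 further genes of G2 and mitosis 17, and of 26 further genes of G1 control and cell cycle exit 24. None of these passed (limma, lowest adjusted p of 0.97, 0.99 and 0.59), where 0.216% of all measured probe sets did, so few calls could come from lists of this size. Among S phase genes the largest SDs were those of Lig1 (the replicative DNA ligase; 335.8, 280.4 and 64.2, the last under the floor) and Chaf1a (a histone chaperone of the fork; 129.5, 258.6 and 246.3). In G2 and mitosis they were those of Ube2c (103, 167.5 and 189.2) and Nek2 (353.8, 324.2 and 198.4). Lig1, Nek2 and Mcm2 were lowest in pool 3, while Ube2c and Cdc45 were highest there. Among genes above the floor in all pools, 22 of 80 members were lowest in pool 3, against 1741 of 5475 of all. In G1 control and exit they were those of Skp1 and Mxd3. Skp1, a subunit of the SCF ubiquitin ligase that removes cell cycle proteins, had 1151.4, 2757.1 and 2371.9, a range of 2.39-fold with pool 1 lowest. Mxd3, a Max-binding repressor, had 264 in pool 1 and was under the floor in the others. In this last list 6 of 24 measured genes were higher in pool 1 than in pool 3 (median -0.25 on the log2 scale), 11 were higher in pool 1 than in pool 2 (-0.04) and 11 higher in pool 2 than in pool 3 (-0.03). For pools 1 and 3 the S phase list had 6 of 14 higher in pool 1 (-0.10), and the G2 and mitosis list 9 of 17 (0.05). Of all 6210 measured genes, 3096 were higher in pool 1 than in pool 3. Higher in pool 1 than in pool 2 were 3093, and 3156 were higher in pool 2 than in pool 3.

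Marker lists of other cell types in the eye ran as follows. Above the floor in all pools were 66.4% of all genes. Blood genes were so for 3 of 4, with summed signals of 20589.1, 12811.7 and 10724.8. Endothelial and pericyte genes were so for 5 of 9 (2196.7, 2359.9 and 2877.1). Pigment epithelium genes were so for 4 of 8 (1759.6, 1712.3 and 2697.7) and microglial genes for 7 of 9 (3011.8, 2858.2 and 2989.8). Single bright genes weigh on these sums. In blood, Hba-a1 had 16422.3, 9461.1 and 8110.5, while Slc4a1 ran the other way (48.1, 140 and 179.1). In pigment epithelium, Pmel had 319.7, 327.7 and 908, while Rrh had 406.9, 435.4 and 432.5. The lists are those of the cell types named. The part of these cell types in the signals of the members was not tested.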

How the data were processed

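Each U74Av2 array (named so per the labels) has 1 linear intensity for every probe set, as the authors deposited it. Software and background correction: not given in the sources used here. These deposited intensity values had 2% trimmed means of 500.3 on each array and were used without further scaling. After 1 blank row and 66 control probe sets were dropped, signals below an array's floor were raised to that floor before taking log2. Genes were named from the platform annotation, with no coordinates in the table. Depth has no counterpart on arrays, and their number limits the precision.

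Variation between pools was tested with limma 3.58.1 (R 4.3.3). The residual variances of an intercept-only model were compared, by their upper tail, with a robust F distribution fitted over all measured probe sets with a trend on signal. Benjamini-Hochberg adjusted p-values under 0.05 were called, and the code was tested on simulated data. The labels do not say whether pools shared animals, so p-values measure the spread between these RNA samples only. Python 3.11.15, pandas 2.3.3, numpy 2.4.6 and matplotlib 3.10.9 did the rest.

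Named genes were the 10 measured probe sets with the largest SD, the 5 steadiest, up to 3 per role with the highest mean signal, all D cyclins, CDK inhibitors, pocket proteins and E2F genes, Pcna, Mki67 and Top2a, the up to 2 of each further list with the largest SD, and, by name only, genes under the floor or with disagreeing probe sets. Other members, and marker genes, were added for their role after their values were seen. The members, roles and lists were chosen with earlier results of these data known. Alternatives changed the normalization, floor, filter, variance model and pools.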

Additional observations from a re-analysis of the deposited data

How the results depend on the processing

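No member passed the test of variability under any of the 11 alternatives run for it, nor in the 2 subsets of members chosen after seeing the data, and the lowest adjusted p of a member ranged from 0.12 to 0.98 (limma). Leaving out each pool in turn gave 0 calls among members each time, and a median SD between 0.17 and 0.21. The counts past 2-fold depended on the floor and on the filter on dim probe sets. For pools 1 against 2, 1 against 3 and 2 against 3 they were 13, 25 and 10 with the floor at the median control, 1, 2 and 1 with it at the highest control, 2, 6 and 0 among probe sets above the floor in all pools, and 0, 0 and 0 among the 25% with the highest mean signal. Without probe sets of the classes r, f, s, i and g the count for pools 2 against 3 was 1. The 92 probe sets above the floor in all pools became 118 and 75 with the lower and the higher floor. The medians over all members stayed between -0.14 and 0.12 on the log2 scale in every alternative run, and they moved by less than the median SD between pools. No paired analysis was possible because all arrays belong to 1 group.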
